A study of Homo sapiens with 36 samples.

Results

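Contactins are immunoglobulin-superfamily adhesion proteins held on the neuronal surface by a lipid anchor. The genes described here are the 6 contactins (CNTN1, CNTN2, CNTN3, CNTN4, CNTN5 and CNTN6), the contactin-associated proteins CNTNAP1 and CNTNAP2, and the L1-family adhesion molecules NRCAM and L1CAM. They were chosen by symbol, and all 10 matched 1 row each among 62710 genes in the deposited tables. The set was proposed because CNTN4 stood low in HET cells at day 3, so the HET and WT values of that day chose it and are given below as a description.

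The cells were H9, an established human embryonic stem cell line, carrying a doxycycline-inducible NGN2 that turns stem cells into neurons (iNeurons). The genotypes of RAI1, a chromatin-binding regulator of transcription, were WT, HET (RAI1+/−) and KO (RAI1−/−). Each was sampled on days 0, 3 and 7 of NGN2 induction, with 4 biological replicates per group, 9 groups and 36 libraries of rRNA-depleted total RNA. All groups were described as sharing the cell line, the NGN2 cassette and the medium (Neurobasal-A with GlutaMAX, B27, GDNF, NT3 and CultureOne). Reads of NEUROG2 (NGN2) were fewer in KO than in WT or HET before induction, as given below. The number of clones behind each genotype is not given in the sources used here.

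Library totals ran from 23948100 to 56678800 counts. Between 2.84% and 27.5% of a library's counts came from a few small structural RNAs, such as RN7SL1 and RN7SK. RAI1 RNA was not lower in HET or KO on any day (group means of 33.5 to 84.6 CPM) and was higher in KO than in WT at day 7 (0.69 log2, edgeR adjusted p = 0.0296), so the gene's count does not check the genotype labels. Pluripotency markers summed to between 1900 and 3860 CPM at day 0 and to between 66.9 and 310 CPM at day 7, while neuronal markers summed to between 5670 and 15500 CPM at day 7. Replicates were labelled biological, with no further word on what separates them, so p-values measure the spread between these cultures. In bulk RNA, fewer cells of a type and less RNA per cell cannot be told apart.

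In neurons, CNTN1 pairs with CNTNAP1 where myelin loops meet the axon, and CNTN2 pairs with CNTNAP2 beside them, where potassium channels of the KCNA family gather. CNTN3, CNTN4, CNTN5 and CNTN6 bind the receptor phosphatase PTPRG, and CNTN4 also binds APP. L1CAM, NRCAM and their relatives CHL1 and NFASC span the membrane, guide axons, and hold on to ankyrins and the spectrin skeleton beneath it.

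Promoters of CNTN4, CNTN6 and L1CAM are shown first, as examples. NGN2 is a basic helix-loop-helix factor, and such factors bind short E-box words. Each sequence is the RefSeq window (GRCh38.p14) from 250 bases before to 50 bases after an annotated start, 5′ to 3′ on the gene's strand. Capitals mark the E-boxes CAGATG (read as CATCTG on the other strand) and CAGCTG, which do not overlap here. CNTN4 has a start at its 5′ end (chr3:2098616-2098915, + strand) and a second inside the gene (chr3:2891970-2892269, + strand), CNTN6 lies on the same arm (chr3:1092774-1093073, + strand), and L1CAM is on the X chromosome (chrX:153875965-153876264, − strand).
CNTN4, start at the 5′ end: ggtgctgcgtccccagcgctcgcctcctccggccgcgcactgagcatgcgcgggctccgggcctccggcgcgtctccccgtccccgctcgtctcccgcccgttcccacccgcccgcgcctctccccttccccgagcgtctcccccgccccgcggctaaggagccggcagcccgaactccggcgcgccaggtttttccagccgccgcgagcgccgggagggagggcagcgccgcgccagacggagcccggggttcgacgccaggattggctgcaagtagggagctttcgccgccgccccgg
CNTN4, internal start: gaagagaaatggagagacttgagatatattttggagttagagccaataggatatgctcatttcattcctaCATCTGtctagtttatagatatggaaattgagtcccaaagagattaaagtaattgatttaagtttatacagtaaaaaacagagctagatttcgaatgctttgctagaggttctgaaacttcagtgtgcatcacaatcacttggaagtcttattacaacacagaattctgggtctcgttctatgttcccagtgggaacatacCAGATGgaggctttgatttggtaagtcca
CNTN6: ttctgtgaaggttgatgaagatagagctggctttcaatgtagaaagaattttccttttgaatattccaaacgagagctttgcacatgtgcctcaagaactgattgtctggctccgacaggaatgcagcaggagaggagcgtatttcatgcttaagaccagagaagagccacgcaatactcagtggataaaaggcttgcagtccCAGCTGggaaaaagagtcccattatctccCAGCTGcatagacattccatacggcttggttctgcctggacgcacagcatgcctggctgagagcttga
L1CAM: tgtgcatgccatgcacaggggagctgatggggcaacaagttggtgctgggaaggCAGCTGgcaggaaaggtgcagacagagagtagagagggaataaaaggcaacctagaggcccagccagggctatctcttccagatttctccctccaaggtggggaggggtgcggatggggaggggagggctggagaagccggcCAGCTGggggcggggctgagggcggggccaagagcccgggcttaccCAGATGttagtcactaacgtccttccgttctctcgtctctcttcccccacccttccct
The 5′ CNTN4 window held neither word and was 77.3% G and C. The internal CNTN4 window held CAGATG 2 times, the CNTN6 window CAGCTG 2 times within 50 bases of its start, and the L1CAM window CAGATG 1 time and CAGCTG 2 times. The CNTNAP2 window, not shown, held neither word. Of the 16 windows of the 10 genes, 6 held either word. Among these is another L1CAM window (chrX:153875895-153876194) that overlaps the one shown and repeats matches of it. Over 35116 RefSeq windows of this length, 14.7% held CAGATG, 17.9% held CAGCTG and 29.8% held either. These letter matches are a description and carry no measure of binding.

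CNTN4 (ENSG00000144619, chromosome 3, 2098813 to 3057956 on the + strand of GRCh38 in GENCODE 29), an axonal contactin, was far higher in WT cells at day 3 than at day 0, and stood as high in the mutants at day 7 but not at day 3. Levels are given as CPM, counts relative to the TMM-scaled total of the library, and means carry the SD of 4 libraries. At day 0 the 4 WT libraries held 1.43, 1.33, 0.989 and 1.05 CPM, the HET libraries 1.32, 1.04, 1.46 and 1.01, and the KO libraries 1.7, 2.18, 1.65 and 1.76. All 12 were low, and the KO libraries lay above the others. At day 3 the WT libraries held 67.6, 103, 83.2 and 62.2 CPM (78.9 ± 18.1, n = 4). The HET libraries of that day held 5.96, 6.07, 7.66 and 1.51 CPM (5.3 ± 2.64), and the KO libraries 10.9, 10.7, 8.36 and 4.17 CPM (8.55 ± 3.14). No mutant library came near the lowest WT library, and replicate 4 was the lowest of each mutant group. At day 7 the WT libraries held 33, 97.6, 105 and 113 CPM (87.3 ± 36.8), the HET libraries 62.1, 153, 140 and 105 (115 ± 40.8), and the KO libraries 133, 123, 115 and 123 (123 ± 7.67). WT and HET overlapped at that day, replicate 1 was the lowest of both, and the KO libraries lay just above the highest WT library.

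**Figure D1:**
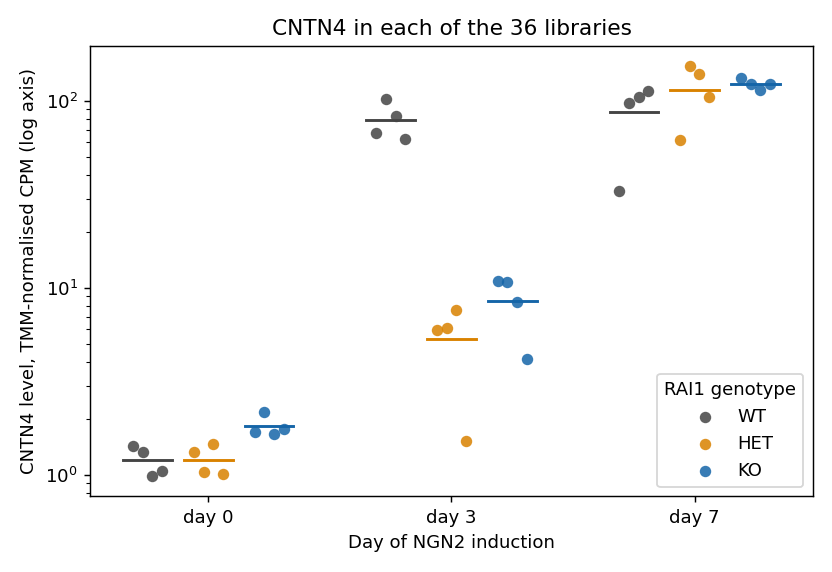
CNTN4 level (TMM-normalised CPM, log axis) in every library by day of NGN2 induction and RAI1 genotype; points are libraries and bars are means of 4. At day 3 the WT libraries lie between 62.2 and 103 CPM and all HET and KO libraries between 1.51 and 10.9 CPM, while at day 7 the 3 genotypes lie between 33 and 153 CPM.

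On the log2 scale CNTN4 at day 3 was lower by 3.88 (SE 0.43) in HET and by 3.23 (SE 0.42) in KO than in WT, which is 14.7-fold and 9.35-fold. These estimates carry no test, since the WT and HET libraries of day 3 chose the gene and KO was set against the same WT libraries. Between day 0 and day 3 CNTN4 was 65.4-fold higher in WT and 4.37-fold higher in HET, again as a description. In KO, whose libraries the choice did not use, CNTN4 rose by 2.21 log2 between days 0 and 3 (SE 0.25, edgeR adjusted p = 4.11e-06) and by 3.9 between days 3 and 7 (SE 0.25, edgeR adjusted p = 4.16e-08). The later step was the larger of the 2 in KO, and in WT the level at day 7 was 1.11-fold that at day 3. At day 7 no genotype comparison of CNTN4 passed the threshold: KO against WT gave 0.5 log2 (95% interval −0.16 to 1.16, edgeR adjusted p = 0.272), and HET against WT 0.39 (−0.27 to 1.05, edgeR adjusted p = 0.479). At day 0 the differences were 0.63 log2 in KO (0.24 to 1.02, edgeR adjusted p = 0.157) and 0.03 in HET (−0.37 to 0.43, edgeR adjusted p = 0.976).

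At day 3, KO against WT, 6 of the 10 genes were called higher (12.6% of 21563 tested genes were) and, CNTN4 aside, 0 lower (8.93% were); CNTN4 was past the threshold as lower, which is no test, since the WT libraries chose it. Called means an edgeR quasi-likelihood adjusted p under 0.05 over all genes tested. The median log2 difference of the 10 was 1.68, beside −0.05 over all genes tested. Among the contactins CNTN1, CNTN3 and CNTN6 rose, and so did L1CAM, NRCAM and CNTNAP2, while CNTN2, CNTN5 and CNTNAP1 did not pass. With the replicate number as a block, which pairs these 2 groups, CNTN2 (1.1 log2, edgeR adjusted p = 0.0166) and CNTNAP1 (0.68 log2, edgeR adjusted p = 0.00708) passed as well. The block also took the number called over all genes from 4649 to 8138.

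CNTN6, a contactin of the developing nervous system, had the largest difference of the set. The WT libraries of day 3 held 0.313, 0.922, 0.598 and 0.289 CPM, HET 7.21, 7.29, 16.5 and 2.02, and KO 9.81, 20.4, 32 and 10.4. Every HET and KO library lay above every WT library, and HET and KO overlapped. KO was 33.5-fold above WT (5.07 log2, SE 0.65, edgeR adjusted p = 0.000143). CNTN6 and CNTN4 sit on the same chromosome arm. Set beside each other within WT at day 3, they stood at 0.06 and 17.6 TPM (a scale that divides by transcript length). Within KO they stood at 3.08 and 2.75 TPM, with overlapping ranges (0.91 to 5.81 and 0.66 to 4.66).

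CNTN1, the CNTNAP1 partner, held 6.98, 13.8, 11.9 and 20.9 CPM in WT at day 3, 15, 26.2, 25.8 and 29.8 in HET, and 136, 97, 75.7 and 99 in KO. HET overlapped WT, and KO lay above both. The KO rise over WT was 2.91 log2 (SE 0.32, edgeR adjusted p = 4.78e-05). CNTN3, a sparsely expressed contactin, was counted 3 times in the lowest WT library of day 3 and 16 times in the lowest KO library, and rose by 1.91 log2 (SE 0.48, edgeR adjusted p = 0.0127). CNTN5, whose count at day 0 never exceeded 4, held between 0.0263 and 0.472 CPM in WT and between 0.346 and 0.867 in KO at day 3 (1.69 log2, 95% interval 0.07 to 3.3, edgeR adjusted p = 0.164). CNTN2, the CNTNAP2 partner, ranged from 39.2 to 77.4 CPM in WT, 52.5 to 272 in HET and 43.4 to 203 in KO (1.13 log2 for KO, 0.18 to 2.08, edgeR adjusted p = 0.114).

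L1CAM, an axon growth and guidance molecule, held 308, 298, 322 and 373 CPM in WT at day 3, 371, 604, 535 and 589 in HET, and 746, 930, 652 and 685 in KO. The 3 groups stood in the order WT, HET, KO, with 1 HET library inside the WT range and no HET library inside the KO range. The KO rise was 1.19 log2 (SE 0.19, edgeR adjusted p = 0.000581). NRCAM, its ankyrin-binding relative at nodes and growth cones, held 9.09, 18.8, 14.1 and 18.1 CPM in WT and 39.7, 67.2, 44.2 and 42.7 in KO, with HET between at 19.7, 33, 25 and 16.6. KO lay above WT and above HET, while HET overlapped WT; the rise in KO over WT was 1.67 log2 (SE 0.27, edgeR adjusted p = 0.000666). CNTNAP2, the neurexin-like partner of CNTN2, held 1.93, 3.8, 3.97 and 3.34 CPM in WT, 7.81, 8.96, 13.3 and 3.33 in HET, and 53.9, 39.8, 33.5 and 22.4 in KO. All KO libraries lay above all others, and KO exceeded WT 11.3-fold (3.5 log2, SE 0.4, edgeR adjusted p = 6.33e-05). CNTNAP1 ranged from 8.97 to 15.9 CPM in WT and from 15.1 to 23.4 in KO (0.67 log2, 95% interval 0.16 to 1.18, edgeR adjusted p = 0.0822).

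**Figure D2:**
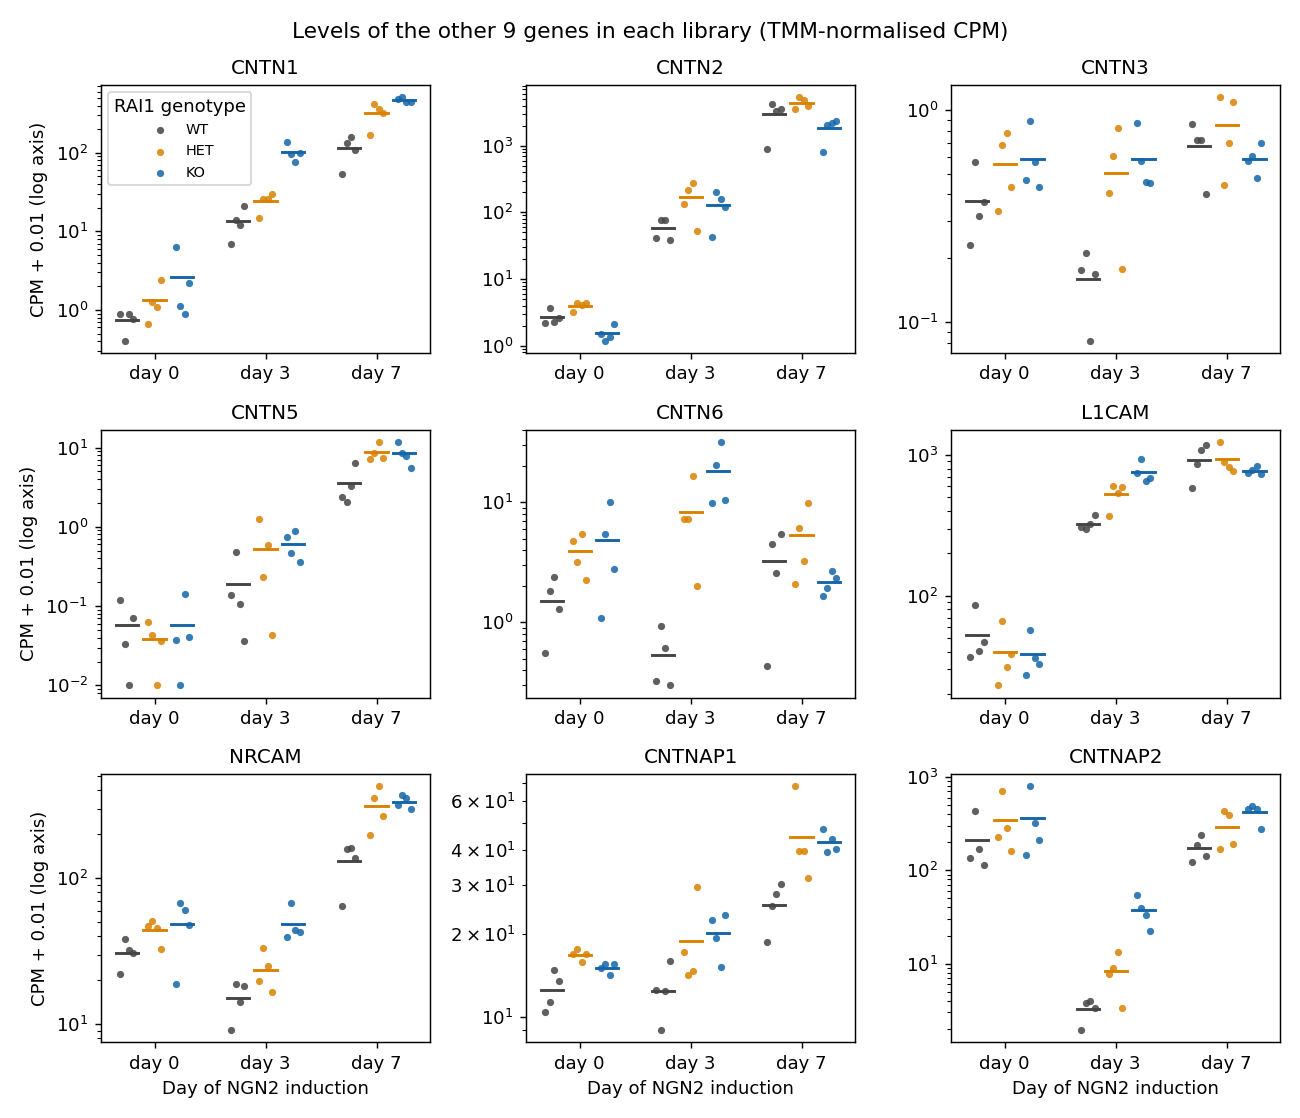
Level of the other 9 genes (TMM-normalised CPM + 0.01, log axis) in every library by day and RAI1 genotype; points are libraries and bars are means of 4. CNTN6 and CNTNAP2 lie lower in WT than in KO at day 3, CNTNAP2 is high at day 0, low at day 3 and high at day 7 in all genotypes, and CNTN1, CNTN2 and CNTN5 climb from day 0 to day 7.

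HET against WT at day 3 is the comparison that chose the set, so its counts are given as a description from which nothing is read: 1 gene, CNTN6, was past the threshold as higher (2.52% of all genes tested were) and 1, CNTN4, as lower (0.761% were). The estimates for CNTN1, CNTN2, CNTN3, CNTN5, CNTN6, CNTNAP1, CNTNAP2, NRCAM and L1CAM were 0.87, 1.52, 1.73, 1.53, 3.96, 0.62, 1.37, 0.66 and 0.7 log2. With the replicate block, which pairs these groups too, 6 genes were past it (5 higher and 1 lower), while the number over all genes went from 708 to 1895. Without HET replicate 4, the library lowest for CNTN2, CNTN4 and CNTN6, 5 were (4 higher and 1 lower), with more genes past it over all genes too. The number over all genes in that fit is not given here, so nothing is read from its count either. KO against WT and HET against WT use the same WT libraries, so their values stand side by side and are not independent.

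KO was compared with HET at day 3 directly. In this comparison 3 genes were called higher (2.77% of all genes were) and 0 lower (1.58% were): CNTN1 by 2.05 log2 (SE 0.31, edgeR adjusted p = 0.00293), CNTNAP2 by 2.13 (SE 0.38, edgeR adjusted p = 0.00717) and NRCAM by 1 (SE 0.26, edgeR adjusted p = 0.0462). The NRCAM call was lost on leaving out HET replicate 1, 3 or 4 or KO replicate 1, 2 or 3 (edgeR adjusted p up to 0.148). CNTN4 differed by 0.65 log2 (95% interval −0.12 to 1.42), with overlapping libraries.

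Other features of the day 3 cultures moved with genotype. All 8 neuronal markers were called higher in KO than in WT, and their summed level was 1360 to 1660 CPM in WT, 1910 to 4680 in HET and 4820 to 8110 in KO. NEUROG2, whose reads join the induced copy and the native gene, went the other way, at 19900 to 25600 CPM in WT, 14800 to 18800 in HET and 7860 to 11000 in KO. At day 0, before induction, it held 10.9 to 32.2 CPM in WT, 4.8 to 12.1 in HET and 1.55 to 2.24 in KO. At day 3 all 5 peripheral neuron markers were called higher in KO, with sums of 78 to 115 CPM in WT, 158 to 226 in HET and 352 to 719 in KO. In the same comparison 2 of 5 dividing-cell markers were lower. Of 6 glial markers tested 1 was higher in KO (sums of 33.8 to 38.1 CPM in WT, 31.8 to 48.6 in HET and 46.7 to 72.2 in KO), with S100B at 0 in every WT library and at most 0.028 CPM in KO, SOX10 between 0.308 and 1.38 CPM and GFAP at most 1.24 CPM over the 12 libraries. The part of these features in the levels of the 10 genes was not tested. CNTN4, given as a description, was lower in KO and all 8 neuronal markers were higher, and a link between the 2 was not tested.

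At day 7 the mutants held more CNTN1, NRCAM, CNTNAP1 and CNTN5 than WT. In KO against WT 5 of the 10 genes were called higher (17% of 21714 tested genes were) and 0 lower (15.6% were), with a median of 0.62 log2 beside −0.04 over all genes. In HET against WT 4 were higher (8.31% were) and 0 lower (6.1% were), with a median of 0.74 beside 0. CNTN1 held 54.5, 133, 161 and 108 CPM in WT, 170, 423, 364 and 320 in HET, and 491, 512, 445 and 450 in KO. All mutant libraries lay above all WT libraries, by 2.06 log2 in KO (SE 0.32, edgeR adjusted p = 0.000524) and 1.48 in HET (SE 0.31, edgeR adjusted p = 0.00828). NRCAM held 64.5, 158, 162 and 138 CPM in WT, 199, 353, 426 and 269 in HET, and 319, 372, 356 and 297 in KO. It rose by 1.37 log2 in KO (SE 0.29, edgeR adjusted p = 0.00322) and by 1.25 in HET (SE 0.29, edgeR adjusted p = 0.0116), with no overlap with WT. CNTNAP2 held 123, 185, 238 and 141 CPM in WT and 452, 485, 455 and 276 in KO, a rise of 1.28 log2 (SE 0.32, edgeR adjusted p = 0.00906), and overlapped WT in HET (170 to 429 CPM; 0.77 log2, edgeR adjusted p = 0.123).

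CNTNAP1 ranged from 18.6 to 30.2 CPM in WT, 31.8 to 67.8 in HET and 39.5 to 47.7 in KO at day 7. CNTN5 ranged from 2.06 to 6.37 CPM in WT, 7.1 to 11.6 in HET and 5.54 to 11.8 in KO. CNTNAP1 rose by 0.75 log2 in KO (edgeR adjusted p = 0.0197) and 0.81 in HET (edgeR adjusted p = 0.0274), and CNTN5 by 1.26 in KO (edgeR adjusted p = 0.0148) and 1.29 in HET (edgeR adjusted p = 0.0256). Several of these calls did not pass with 1 library fewer, while the folds kept their direction. In KO, CNTNAP1 was lost without WT replicate 1 or KO replicate 1 (0.63 and 0.66 log2, edgeR adjusted p up to 0.0737) and CNTN5 without KO replicate 1 (1.01 log2, edgeR adjusted p = 0.0598), which left 3 genes called. In HET, CNTNAP1 was lost without WT replicate 1, 2 or 3 (0.68 to 0.84 log2, edgeR adjusted p up to 0.076) and CNTN5 without WT replicate 1, 2 or 3 or HET replicate 2 or 3 (1.11 to 1.3 log2, edgeR adjusted p up to 0.0865), which left 2 genes called in the lowest case.

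CNTN2 and L1CAM, the most abundant of the set at day 7, did not pass in either mutant. CNTN2 held 897, 4200, 3300 and 3590 CPM in WT, 3560, 5380, 4850 and 3930 in HET, and 798, 2070, 2210 and 2380 in KO. Replicate 1 was low in WT and in KO, and KO lay below HET in all libraries. L1CAM held 584 to 1170 CPM in WT, 773 to 1240 in HET and 730 to 835 in KO. In the fit, CNTN2 differed from WT by −0.68 log2 in KO (95% interval −1.51 to 0.15, edgeR adjusted p = 0.233) and L1CAM by −0.26 (−0.69 to 0.17, edgeR adjusted p = 0.388). WT replicate 1 and HET replicate 1 had the largest shares of small structural RNA in their day 7 groups, 25.6% and 27.5%. Leaving out both was an alternative chosen after seeing the data, and KO replicate 1, the lowest KO library for CNTN2, stayed in. Dropping the lowest library of WT alone moves the CNTN2 difference down, so that value is a description. In that fit CNTN2 gave −0.97 log2 in KO against WT (edgeR adjusted p = 0.0228), L1CAM −0.41 (edgeR adjusted p = 0.0189), and CNTNAP2 0.85 in HET (edgeR adjusted p = 0.0462). Over all genes the number called went from 7070 to 9016 in KO against WT and from 3129 to 7455 in HET against WT.

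KO against HET at day 7 gave 0 genes higher (0.668% of all genes were) and 0 lower (0.737% were); at an unadjusted p under 0.05 edgeR gave 0 higher and 1 lower, and DESeq2 called 0. There were 2 lower when those 2 libraries were left out (CNTN2 by −1.34 log2, edgeR adjusted p = 0.0399, and CNTN6 by −1.57, edgeR adjusted p = 0.045). KO replicate 1 again stayed in, and the number called over all genes went from 305 to 619. Neuronal markers summed to 5670 to 11600 CPM in WT, 11600 to 14200 in HET and 12300 to 15500 in KO at day 7, and all 5 dividing-cell markers were lower in both mutants (30.9 to 201 CPM in WT, 10.7 to 24.3 in HET, 11.9 to 14.9 in KO). Pluripotency markers summed to 66.9 to 72.4 CPM in WT, 81.5 to 153 in HET and 230 to 310 in KO, of which LIN28A made 12.8 to 29.7 in WT and 223 to 303 in KO. Of 3 pluripotency markers tested, 1 was called higher in KO than in WT and 2 lower. SOX2 held 10.2 to 20.7 CPM in WT and 1.89 to 4.52 in KO, and DPPA4 28.3 to 37.6 in WT and 4.13 to 12.6 in KO. Mesenchymal markers summed to 19.4 to 28.5 CPM in WT, 0.71 to 26.9 in HET and 0.137 to 1.47 in KO, and 2 of 5 neural progenitor markers were lower in KO. Of the 5 mesenchymal markers 1 was high enough to test. COL1A1 alone held 19.4 to 28.4 CPM in WT and 0.0274 to 0.721 in KO. COL3A1, TWIST1, LUM and DCN each held at most 0.0712 CPM in WT, and COL3A1 reached 0.522 in KO. The part of any of these in the day 7 differences was not tested.

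**Figure D3:**
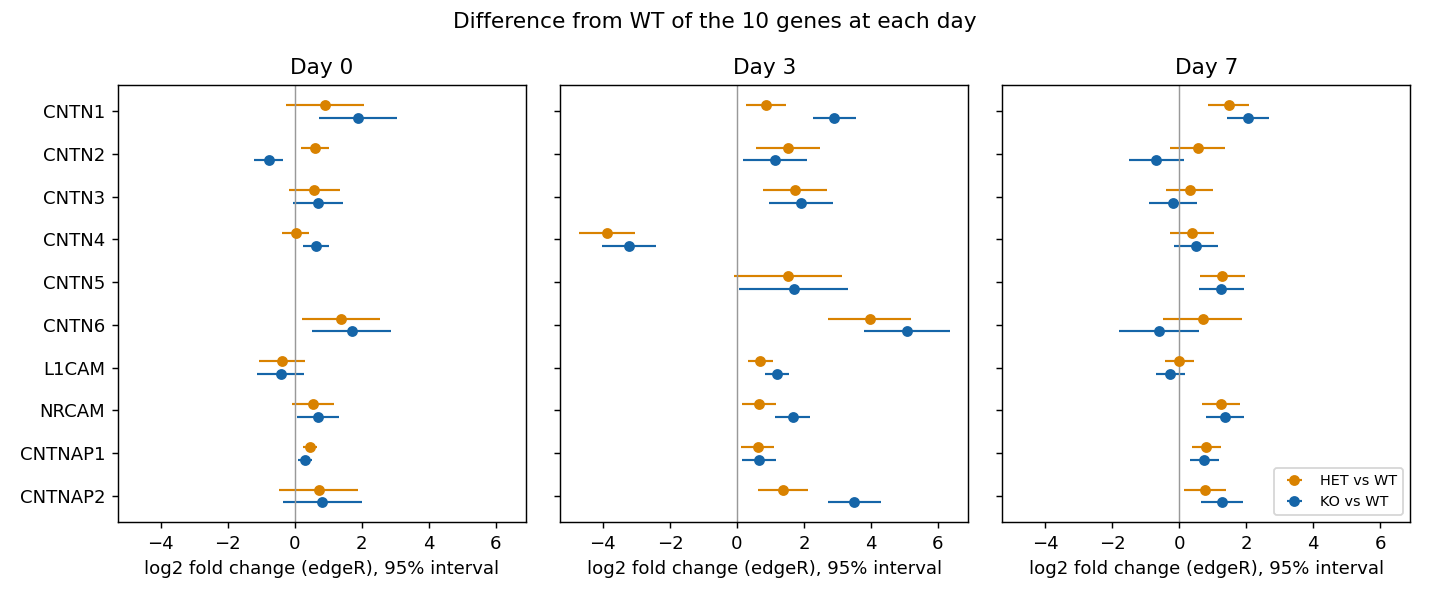
Log2 fold change from WT (edgeR estimate with its 95% interval, 4 against 4 libraries) of the 10 genes in HET and KO at days 0, 3 and 7; CNTN5 was too low to test at day 0. CNTN4 lies at −3.88 and −3.23 at day 3 and between 0.03 and 0.63 at the other days, while the other 9 lie above 0 at day 3; HET against WT at day 3 chose the set and is shown as a description.

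Before induction few genes of the set passed the test. Of 9 genes tested at day 0 (CNTN5 was too low), 0 were called higher in KO than in WT (1.66% of all genes were) and 0 lower (0.416% were), and 0 higher in HET than in WT (1.22% were) and 0 lower (0.411% were). In KO against HET 0 were higher (0.524% were) and 1, CNTN2, lower (0.333% were). CNTN2 held 2.2, 3.66, 2.28 and 2.58 CPM in WT, 3.25, 4.33, 4.14 and 4.29 in HET, and 1.48, 1.18, 1.35 and 2.1 in KO. KO lay below both other genotypes, and below HET by 1.38 log2 (difference −1.38, SE 0.22, edgeR adjusted p = 0.00601), a call that was lost when all 36 libraries shared 1 fit (edgeR adjusted p = 0.554). CNTNAP2 differed widely between replicates: replicate 2 held 428, 701 and 790 CPM in WT, HET and KO, and the other 9 libraries held between 115 and 320. With the replicate block, which pairs KO and WT at this day, CNTNAP2 passed as higher in KO (0.74 log2, edgeR adjusted p = 0.022) and L1CAM as lower (−0.39, edgeR adjusted p = 0.0384). The block took the number called over all genes from 425 to 960. Without the block 1 gene was called higher on leaving out KO replicate 1. HET against WT gave 1 gene higher without WT replicate 3. At an unadjusted p under 0.05, edgeR gave 5 higher and 1 lower in KO and 3 higher and 0 lower in HET. DESeq2 called 2 genes in KO (1 higher, 1 lower) and 1 higher in HET. Over all genes DESeq2 called 902 in KO and 655 in HET, beside 425 and 333 in edgeR.

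Over time the set changed in order. In WT at day 0 the levels per length ran CNTNAP2 (27.5 ± 18 TPM), L1CAM (10.4 ± 4.28), NRCAM (4.53 ± 0.64) and CNTNAP1 (2.28 ± 0.436), with the contactins all below 1 TPM; CNTNAP2 and L1CAM overlapped, and the other steps did not. At day 3 L1CAM (33.5 ± 8.11 TPM) and CNTN4 (17.6 ± 7.06) led with overlapping ranges, ahead of CNTN2 (4.27 ± 1.9), and CNTNAP2 held rank 7 (0.358 ± 0.0479). At day 7 CNTN2 led (153 ± 99.2 TPM) with L1CAM (65.3 ± 23.1) overlapping it, followed by CNTN4, CNTNAP2, NRCAM and CNTN1 between 13.2 and 9.01 TPM, whose neighbours overlapped. CNTN4 held rank 2 of the 10 in WT at day 3, rank 6 in HET and rank 8 in KO. TPM is used only for the order within a group, because small structural RNAs took between 47.9% and 86.5% of a library's TPM.

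Between days 0 and 3 in WT 4 genes were called higher (31.2% of all genes were) and 3 lower (28.7% were). CNTN1 rose by 4.2 log2 (SE 0.41, edgeR adjusted p = 8.12e-07), CNTN2 by 4.44 (SE 0.44, edgeR adjusted p = 1.02e-06) and L1CAM by 2.62 (SE 0.28, edgeR adjusted p = 1.82e-06), with CNTN4 the other, which is a description here. CNTNAP2 fell by 6.04 log2 (SE 0.46, edgeR adjusted p = 7.1e-08), NRCAM by 1.05 (SE 0.28, edgeR adjusted p = 0.00522) and CNTN3 by 1.26 (SE 0.42, edgeR adjusted p = 0.0179). Without WT day 0 replicate 2 the CNTNAP2 change was −5.44, and the CNTN3 call was lost without that library or WT day 3 replicate 3 (edgeR adjusted p up to 0.0838). Between days 3 and 7 in WT 9 genes were higher (23.3% were), all but CNTN4, and 0 lower (22.9% were). CNTNAP2 (5.72 log2, SE 0.45, edgeR adjusted p = 2.11e-07) and CNTN2 (5.68, SE 0.46, edgeR adjusted p = 2.53e-07) rose most. CNTN5 rose by 4.25 log2 (edgeR adjusted p = 8.34e-05), and by 5.26 without WT day 3 replicate 2.

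In HET 5 genes were higher at day 3 than at day 0 (24.4% of all genes were) and 2 lower (23.9% were), and 8 were higher at day 7 than at day 3 (20.8% were) and 0 lower (20.5% were). CNTN1, CNTN2, CNTN4, CNTN5 and L1CAM were the 5, with CNTN4 a description in both intervals, and CNTN5, with at most 2 counts per HET library at day 0, moved to 3.16 log2 from 3.96 without HET day 3 replicate 1. The lower genes were CNTNAP2 (−5.38 log2, edgeR adjusted p = 1.13e-05) and NRCAM (−0.92, edgeR adjusted p = 0.0109). Without HET day 0 replicate 2 the CNTNAP2 change was −4.75. Between days 3 and 7, CNTN5 gave 4.04 log2 (edgeR adjusted p = 0.000346) and 4.86 without HET day 3 replicate 1. The later call of L1CAM (0.83 log2, edgeR adjusted p = 0.0373) was lost on leaving out HET day 3 replicate 1 or 3 or HET day 7 replicate 1, 2 or 3 (edgeR adjusted p up to 0.107). In KO 7 genes were higher at day 3 than at day 0 (29.7% were) and 1, CNTNAP2, lower (29.6% were). CNTN2 rose by 6.39 log2 (SE 0.51, edgeR adjusted p = 1.77e-07), L1CAM by 4.27 (SE 0.23, edgeR adjusted p = 4.47e-09) and CNTN6 by 1.89 (SE 0.54, edgeR adjusted p = 0.00825), while CNTNAP2 fell by 3.31 (SE 0.47, edgeR adjusted p = 3.65e-05). CNTN1 rose by 5.25 log2 (SE 0.51, edgeR adjusted p = 1.02e-06), and by 6.17 without KO day 0 replicate 1, whose 6.28 CPM was the highest of its group. Without KO day 0 replicate 2 the CNTNAP2 change was −2.62, and without KO day 0 replicate 3 the CNTN6 change was 2.53 and that of CNTN5 4.67 in place of 3.58. CNTNAP1 rose least (0.4 log2, edgeR adjusted p = 0.0274), was lost without KO day 0 replicate 1, 3 or 4 or KO day 3 replicate 1 or 4 (edgeR adjusted p up to 0.0734), and stood at 0 on the log2(TPM + 1) scale. Between days 3 and 7 in KO 7 genes were higher (24.3% were) and 1 lower (23.6% were). The lower gene was CNTN6, which fell by 3.03 log2 (SE 0.57, edgeR adjusted p = 0.000583), from 9.81 to 32 CPM down to 1.64 to 2.69 CPM.

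Whether KO and WT changed differently with time was tested as an interaction over all 36 libraries; HET was not tested in this way. Between days 0 and 3, 4 genes had a higher log2 change in KO than in WT (5.37% of all genes did). CNTN4 aside, 0 had a lower one (3.19% did). For CNTNAP2 this was a smaller fall, by 3.31 log2 in KO and 6.04 in WT. CNTN6 differed by 3.42 log2 (SE 0.93, edgeR adjusted p = 0.0187), CNTNAP2 by 2.73 (SE 0.69, edgeR adjusted p = 0.0116), L1CAM by 1.66 (SE 0.38, edgeR adjusted p = 0.00572) and CNTN2 by 1.97 (SE 0.63, edgeR adjusted p = 0.048). The CNTN2 value passed in 4 of the 16 fits that left out 1 library (edgeR adjusted p up to 0.122), and CNTNAP2 was lost without WT day 0 replicate 2 (2.1 log2, edgeR adjusted p = 0.0535), which left 3 genes past the threshold, CNTN4 included. Without KO day 0 replicate 2 CNTNAP2 gave 3.41, and without KO day 0 replicate 3 CNTN6 gave 4.04.

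Between days 3 and 7, 5 genes had a lower log2 change in KO than in WT (10.9% of all genes did). CNTN4 aside, 0 had a higher one (7.6% did). Of the 5, CNTN6 fell in KO and rose in WT. CNTN2 and CNTNAP2 rose in both, by 3.88 and 3.53 log2 in KO and by 5.68 and 5.72 in WT. CNTN3 and L1CAM changed by 0.04 and 0.08 log2 in KO and rose by 2.12 and 1.51 in WT. CNTN6 differed by −5.69 log2 (SE 0.96, edgeR adjusted p = 5.59e-05), CNTN3 by −2.12 (SE 0.58, edgeR adjusted p = 0.0087), CNTNAP2 by −2.24 (SE 0.69, edgeR adjusted p = 0.0198), CNTN2 by −1.84 (SE 0.6, edgeR adjusted p = 0.027) and L1CAM by −1.47 (SE 0.38, edgeR adjusted p = 0.00596). For CNTN4 the 2 interaction estimates were −3.8 and 3.7 log2, given as a description with no test. CNTN2 was lost in 5 of the 16 fits without 1 library (WT day 3 replicate 1 or 4, KO day 3 replicate 2, WT day 7 replicate 2 or KO day 7 replicate 1; edgeR adjusted p up to 0.0836), and CNTNAP2 without WT day 3 replicate 1 or KO day 3 replicate 1 (edgeR adjusted p up to 0.0611). Both intervals share the day 3 libraries.

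Relatives of the set, in lists chosen by function, were also higher in KO at day 3, where 5 of 6 paralogs were called higher and 0 lower (background 12.6% and 8.93%, as above). CHL1, an L1-family relative next to CNTN6, rose from 0.172 to 3.95 CPM (4.53 log2, edgeR adjusted p = 0.000207), and NFASC, an L1-family relative whose glial form meets CNTN1 and CNTNAP1 at the axon, from 169 to 547 CPM (1.68 log2, edgeR adjusted p = 8.94e-05). CNTNAP4 averaged 0.00598 CPM in WT and 0.611 CPM in KO. At day 7, 4 paralogs were higher in KO and 2 lower (17% and 15.6% of all genes were): CNTNAP4 rose from 5.32 to 197 CPM (5.2 log2, edgeR adjusted p = 0.000466), CHL1 from 2.52 to 32.7 (3.68 log2, edgeR adjusted p = 0.000503) and CNTNAP5 from 16 to 113, while CNTNAP3 fell from 12.9 to 2.13 CPM (−2.6 log2, edgeR adjusted p = 0.000805) and CNTNAP3B from 13.5 to 5.67. CNTNAP3 and CNTNAP3B are near copies, so reads may be split between them and both values are uncertain; these 2 were named after their values were seen.

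Of 9 ligands and receptors, 7 were higher in KO at day 3 and 0 lower. NCAN, a brain chondroitin sulphate proteoglycan that binds L1CAM, rose from 16.5 to 392 CPM (4.56 log2, edgeR adjusted p = 4.2e-05), APLP1, a relative of APP, from 55.2 to 173 (1.64 log2, edgeR adjusted p = 3.64e-05), and TNC, an extracellular matrix protein, from 0.195 to 1.26 (2.66 log2, edgeR adjusted p = 0.036). PTPRG and APP, binding partners of CNTN4 named after their values were seen, rose from 99.9 to 200 CPM (edgeR adjusted p = 0.00713) and from 598 to 974 CPM (edgeR adjusted p = 0.0189), against the direction of CNTN4. At day 7, 5 of the 9 were higher in KO (17% of all genes were) and 1 lower (15.6% were), PTPRZ1, a receptor phosphatase that binds CNTN1 (57.2 to 15.6 CPM, −1.87 log2, edgeR adjusted p = 0.000599). Of 8 membrane anchors tested at day 3, 7 were higher in KO and 0 lower. ANK2, an axonal ankyrin, rose from 180 to 1470 CPM (3.01 log2, edgeR adjusted p = 5.76e-05), KCNA2, a potassium channel gathered by CNTN2 and CNTNAP2, from 2.9 to 16.9 (2.52 log2, edgeR adjusted p = 0.000732), and SPTBN4, an axonal spectrin, from 9.17 to 33.5 (1.85 log2, edgeR adjusted p = 0.000222). At day 7, 6 of 9 anchors were higher in KO and 0 lower (17% and 15.6% of all genes were), led by KCNA1, a potassium channel (0.0993 to 0.701 CPM, 2.79 log2, edgeR adjusted p = 0.0176), and ANK3, the ankyrin of the axon initial segment (110 to 699 CPM, 2.67 log2, edgeR adjusted p = 0.00142). CASK, a scaffold that binds the tails of neurexins, was higher in KO at all days, by 1.1 log2 at day 0 (edgeR adjusted p = 2.05e-07), 1.82 at day 3 (edgeR adjusted p = 5.15e-05) and 2.07 at day 7 (edgeR adjusted p = 7.06e-05).

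**Figure D4:**
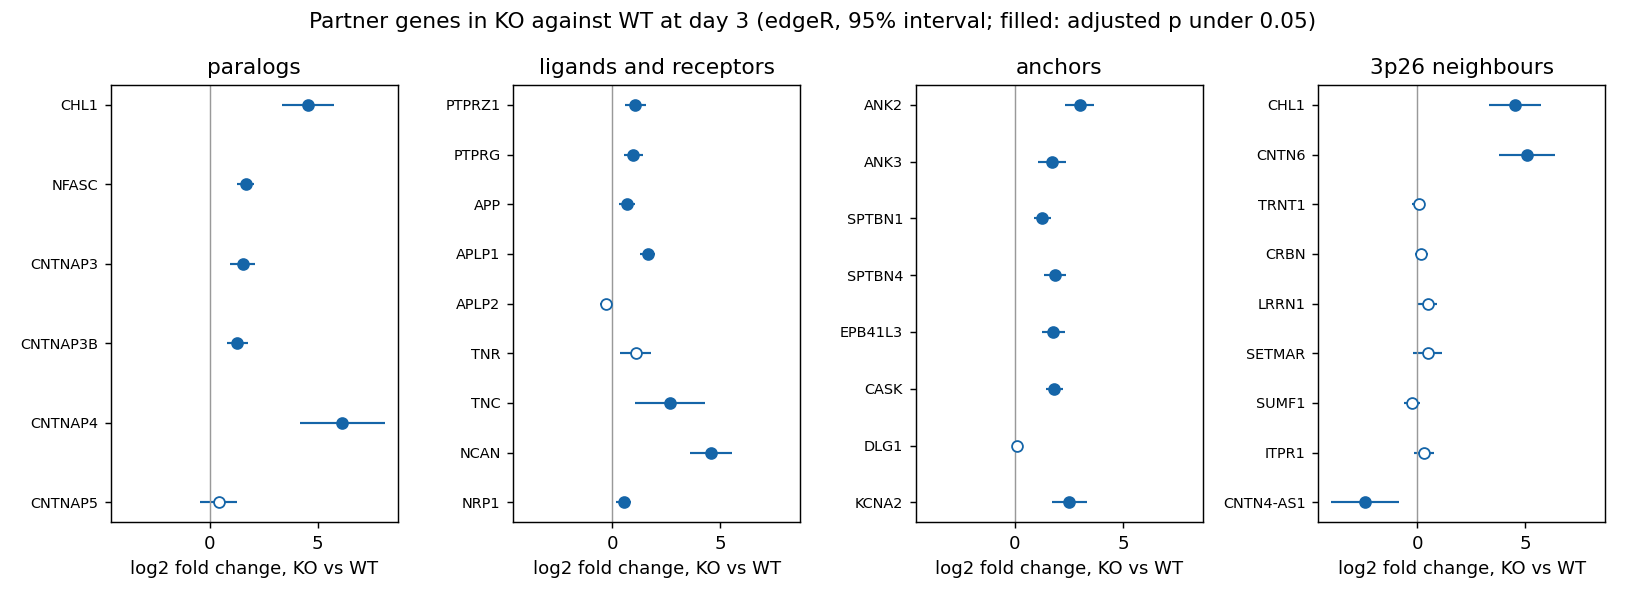
Log2 fold change of KO against WT at day 3 (edgeR estimate with its 95% interval, 4 against 4 libraries) for paralogs, ligands and receptors, anchors and chromosome 3p26 neighbours; filled points are called. Nearly all called points lie above 0, and CNTN4-AS1, an antisense RNA that overlaps CNTN4, lies at −2.42.

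Of 9 neighbours of CNTN4 on 3p26 tested at day 3, 2 were higher in KO (CHL1 and CNTN6; 12.6% of all genes were) and 1 lower (8.93% were), with a median of 0.32 log2 beside −0.05 over all genes. The lower one was CNTN4-AS1 (chromosome 3, 3039033 to 3069242, − strand), an antisense RNA over the last 18924 bases of CNTN4. It averaged 0.526 CPM in WT, 0.0333 in HET and 0.0966 in KO at day 3, and 0.702, 0.773 and 0.703 CPM at day 7. In KO against WT at day 3 it differed by −2.42 log2 (SE 0.8). Use of strand in counting is not given in the sources used here, so reads of CNTN4 and CNTN4-AS1 cannot be told apart and no p is given for it. TRNT1 and CRBN, genes beyond the 3′ end of CNTN4 that were picked after their values were seen, differed from WT by 0.06 and 0.18 log2 in KO and by 0.28 and 0.12 in HET at day 3.

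Effective length, the mean transcript length that the authors' counts and FPKM imply for a gene, showed no call among the genes of the set that could be tested. CNTN3 and CNTN6 were too low to test on either day, and CNTN4 and CNTN5 at day 3. In KO against WT at day 3, 0 of 6 genes tested differed (limma, 0.0927% of all genes did), and in HET against WT 0 of 6 (0.0154% did). At day 7, 0 of 8 differed in KO (0.484% did) and 0 of 8 in HET (0.301% did). At an unadjusted p under 0.05, limma gave 0 genes in either comparison at day 3. At day 7 it gave 3 in KO and 1 in HET, all longer. Without HET replicate 1, 4 of the 8 were called longer in HET. The share over all genes in that fit is not given here, so nothing is read from this count. CNTN4 had an effective length of 1732 ± 131 nucleotides in WT, 1894 ± 106 in HET and 2015 ± 473 in KO at day 3, beside 5198 nucleotides for the longest of its 17 transcripts in GENCODE 29. CNTNAP2 had 5798 ± 12 nucleotides in WT at day 0, 3341 ± 881 at day 3 and 3890 ± 301 at day 7, and at day 7 it had 5296 ± 1466 in HET and 5037 ± 187 in KO. In WT all libraries of days 3 and 7 lay below those of day 0, while HET replicates 2 and 3 of day 7 (6303 and 6361) lay above all day 0 libraries; these differences over time were not tested.

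The genes whose log2(CPM + 1) followed CNTN4 most closely over the 36 libraries were KLHDC1 (Pearson r = 0.931), NDUFA4L2 (0.931), HERC3 (0.921), DNAJC27-AS1 (0.918) and ATP2B1-AS1 (0.916), of 14880 genes compared. For L1CAM they were ELAVL3 (0.985), PPP2R5B (0.985), SEPTIN6 (0.985), TUBB3 (0.981) and DISP2 (0.981), of which ELAVL3 and TUBB3 are neuronal markers. The libraries fall into 9 groups that share days and genotypes, so these values describe likeness of pattern over those groups and carry no p.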

How the data were processed

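RNA from 36 cultures (9 groups of RAI1 genotype and day, 4 each) was measured by rRNA-depleted RNA-seq, and groups and replicate numbers come from the labels. Per the submitters' processing notes, the tools were cutadapt 4.8, FastQC 0.11.8, MultiQC 1.20, STAR 2.7.8a and RSEM 1.3.3 on GRCh38; the annotation release and the use of strand in counting are not given in the sources used here. The authors deposited RSEM expected counts per gene, which were rounded to whole numbers here. The authors also deposited TPM, used here for the order of genes within a group, and FPKM, used with the counts to derive effective length.

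Differences were tested with edgeR 4.0.16 (R 4.3.3; TMM, filterByExpr, quasi-likelihood F test, Benjamini-Hochberg over all genes tested, threshold 0.05). Comparisons were fitted on the 12 libraries of a day or genotype, and interactions on all 36. Effective length (at least 50 counts in each library, centred per library) was tested with limma 3.58.1. Intervals are 1.96 SE either side of the estimate. Scripts were tested on simulated data. Alternatives covered scaling, filtering, DESeq2 1.42.0, limma on log2(TPM + 1) and log2(TPM + 0.1), a replicate block, the structural RNA share as a covariate, the libraries in the fit, and each library left out. 4 reporter sequences were left out. RefSeq promoter windows on chromosome 8 were not used.

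The 10 genes, the lists and the tests were chosen with earlier results of these data known. The named genes are the 10, the 5 most like CNTN4 and L1CAM, and up to 3 with the largest called change per list and comparison; others are marked as picked after their values were seen. HET against WT at day 3 chose the set, so it carries no test, nor does CNTN4 in any comparison with those libraries.

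Replicate numbers paired libraries where same-numbered libraries deviated together (correlation above 0.1) in all 4 pairs over 16357 genes: KO and WT at day 0 (correlations 0.29 to 0.695), KO and WT at day 3 (0.129 to 0.588) and HET and WT at day 3 (0.166 to 0.796). The closest WT library shared the number for 4, 3 and 2 of the 4 mutant libraries in these comparisons, in that order.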

Additional observations from a re-analysis of the deposited data

Results flagged for a closer look

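In 3 of 90 groups of 4 libraries, 1 library lay apart from the other 3 by Dixon's criterion, which chance meets in about 1 group in 20. CNTNAP2 stood at 428 CPM in WT replicate 2 at day 0, with the others between 115 and 168. It stood at 276 CPM in KO replicate 4 at day 7, with the others between 452 and 485. NRCAM stood at 67.2 CPM in KO replicate 2 at day 3, with the others between 39.7 and 44.2.

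Several genes took a different course in KO than in WT by the interaction test in edgeR. Between days 0 and 3 the difference (KO minus WT) was 1.97 log2 for CNTN2, 3.42 for CNTN6, 2.73 for CNTNAP2, 1.66 for L1CAM and −3.8 for CNTN4. Between days 3 and 7 it was −1.84 for CNTN2, −2.12 for CNTN3, −5.69 for CNTN6, −2.24 for CNTNAP2, −1.47 for L1CAM and 3.7 for CNTN4. The CNTN4 values rest on WT libraries that chose the gene, so they are a description and no test.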

How the results depend on the processing

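Among the 80 called values of single genes are those of CNTN4 and of HET against WT at day 3 that carry no test. They are counted here as a description. All 80 kept direction and call with DESeq2 size factors and with DESeq2. With library size alone 76 did, without the filter 78 and with the replicate block 79. Of 69, 65 did with the structural RNA covariate and 65 with all 36 libraries in 1 fit, and 64 of 67 with only the 8 libraries compared. On log2(TPM + 1) 42 of 76 did and on log2(TPM + 0.1) 46 of 76; CNTNAP1, KO day 3 against day 0, was 0 and −0.06 there. Beyond the calls named in the report, CNTN5 at day 7 was lost with the covariate (edgeR adjusted p = 0.0517 in KO and 0.079 in HET) and with all 36 libraries (0.0683 and 0.0933), and NRCAM in WT, day 3 against day 0, with the covariate (0.116). The cause was not tested. The TPM scales shifted the median of all genes by −0.89 to 0.79 log2 against the counts and took the share of calls that were higher from 58.6% to 86.2% in KO against WT at day 3 (log2(TPM + 1)).

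Counts of called genes moved by over 1.5 times as follows. With log2(TPM + 1) and log2(TPM + 0.1), in that order, they were 0 and 0 for KO against HET at day 0, 1 and 1 for HET against WT at day 3, 0 and 0 for KO against HET at day 3, 1 and 1 for KO against WT at day 7, 0 and 1 for HET against WT at day 7, 3 and 4 for HET day 3 against day 0, 1 and 1 for the interaction to day 3, and 2 and 2 for that from day 3 to 7; with log2(TPM + 1) alone they were 4 for KO against WT at day 3 and 5 for KO day 3 against day 0. Over all genes the TPM scales called fewer there too. For KO against WT at day 3, log2(TPM + 1) gave 717 in place of 4649. DESeq2 gave 2 (KO against WT, day 0), 1 (HET against WT, day 0) and 6 (HET against WT, day 3). Over all genes it called 902, 655 and 1321 there, in place of 425, 333 and 708. All 36 libraries gave 1, 0 and 4 for KO against WT at day 0, KO against HET at day 0 and HET against WT at day 3. Over all genes that fit called 342, 149 and 1161, in place of 425, 175 and 708. Only the 8 libraries compared gave 2 for HET against WT at day 7, with 1674 called over all genes in place of 3129. Uncentred effective length gave 1 in KO against WT at day 7.

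With the replicate block the counts were 2 for KO against WT and 2 for HET against WT at day 0, 6 for HET against WT at day 3 and 1 for KO against HET at day 7 (CNTN2, −1.38 log2). Over all genes these went from 425 to 960, 333 to 689, 708 to 1895 and 305 to 394. The block lost CNTNAP1 in HET against WT at day 7 (edgeR adjusted p = 0.055). Outside the 3 paired comparisons the numbers are a label alone.

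Leaving out 1 library gave 0 to 1 genes called for KO against WT at day 0, 0 to 1 for HET against WT at day 0, 2 to 5 for HET against WT at day 3, 3 to 5 for KO against WT at day 7, 2 to 5 for HET against WT at day 7, 0 to 0 for KO against HET at day 7, 3 to 5 for the interaction to day 3, and 0 to 4 for effective length in HET against WT at day 7. Leaving out WT and HET replicate 1 of day 7 together, chosen after seeing the data, gave 7, 5 and 2 for KO against WT, HET against WT and KO against HET. Over all genes the numbers called rose too, from 7070 to 9016, from 3129 to 7455 and from 305 to 619.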
